A study of Mus musculus with 6 samples.

Results

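The 46 genes described here encode cell-surface proteins known from synapses and from the wiring of the nervous system: neurexins, neuroligins, LRRTM and SLITRK proteins, contactins and their Caspr partners, neural immunoglobulin adhesion molecules, teneurins, FLRT proteins, CSMD proteins and LRP1B. They were chosen by gene symbol, from a list drawn up by protein family, and all 46 were found among the 24421 rows of the tables. Of these, 45 had a base mean (the mean read count after division by library size factors) of at least 10 and are called measured. The list does not hold every relative of these families. RNA came from the mesenchyme of the anterior palate of C57BL/6 embryos at E12.5, after Dispase II had been used to take off the epithelium. The wildtype group had 3 samples and the Wnt1Cre;Meis2f/f group had 3 samples, named as biological replicates, and whether a sample is 1 embryo or a pool is not stated. Meis2 is a homeodomain transcription factor, the floxed allele is deleted by Cre recombinase, and Wnt1Cre acts in the neural crest, so cells of other origin in the same tissue keep Meis2. No group with Wnt1Cre alone was analysed here, so an effect of the transgene and of the deletion cannot be told apart.

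Most of these proteins work in pairs across the gap between cells. Neurexins on one neuron bind neuroligins, LRRTM proteins and other partners on the next, and SLITRK and IL1RAPL proteins bind receptor tyrosine phosphatases in the same way. FLRT proteins bind UNC5 receptors, which can repel cells, and latrophilins, which teneurins also bind. Contactins and IgLON proteins are held on the membrane by a lipid anchor, and contactins pair with Caspr proteins. Several of the families also act outside the nervous system, FLRT proteins and teneurins in embryonic mesenchyme among them. Many of the genes are very long because of long introns. Of the 46, 8 share exon bases with another gene of the tables, and none of the 12 genes called below is among these.

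The deposited data were the authors' own DESeq2 comparisons, with no value for any single library, so sample values and their overlap cannot be shown and each error is the standard error of the fit. One table rests on all 6 libraries and another on 4 of the same 6, with 2 per genotype. Size factors ran from 0.775 to 1.44 over the 6 libraries. Values below are from 6 libraries unless 4 are named. A gene is called higher or lower at an adjusted p under 0.05 (DESeq2 Wald test, Benjamini-Hochberg adjustment). Fold changes are moderated, so those of genes with few reads are understated, and the intervals given below are centred on these moderated values. The direction was read from Meis2, which had a log2 fold change of -0.28 (SE 0.092) in the authors' deposited table. That gene's adjusted p was 0.0743 with 6 libraries and 0.0213 with 4, per the authors' deposited tables (DESeq2). Every direction given here, mutant over wildtype, rests on reading that gene as lower in the mutant. The tissue was measured in bulk, so fewer cells of a type and less RNA per cell cannot be told apart.

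Expression of 11 of the 46 genes was higher in the mutant palate and that of 1 was lower. The largest rises were those of the teneurin gene Tenm2 (1.92-fold), the postsynaptic gene Lrrtm1 (1.85-fold), the adhesion gene Ncam2 (1.78-fold) and the guidance gene Flrt2 (1.77-fold) in the authors' deposited table. Csmd2, Lrrtm4, Cntn5, Slitrk5, Cntn3, Slitrk2 and Tenm4 rose by smaller amounts, between 1.28-fold and 1.59-fold in the authors' deposited table. Negr1, an IgLON gene, was the member that fell, to 0.712 of the wildtype level in the same deposited table. Among all 14942 genes with an adjusted p, 1.75% were called higher and 1.16% lower, and 11 of 46 members correspond to 23.9%. The members were chosen with earlier results of these data known, so the difference between these shares is a description and was not tested. The median log2 fold change over the 45 measured members was 0.16, with 34 above 0. Over all 14580 measured genes the median was -0.01, with 6714 above 0. At an unadjusted p under 0.05, 18 members were higher and 3 lower, beside 831 higher and 782 lower among all 24421 genes. Those 24421 include 3424 genes with a base mean of 0, which can have no p, whereas all 46 members were tested. The unadjusted counts are therefore not shares of like sets.

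**Figure D1:**
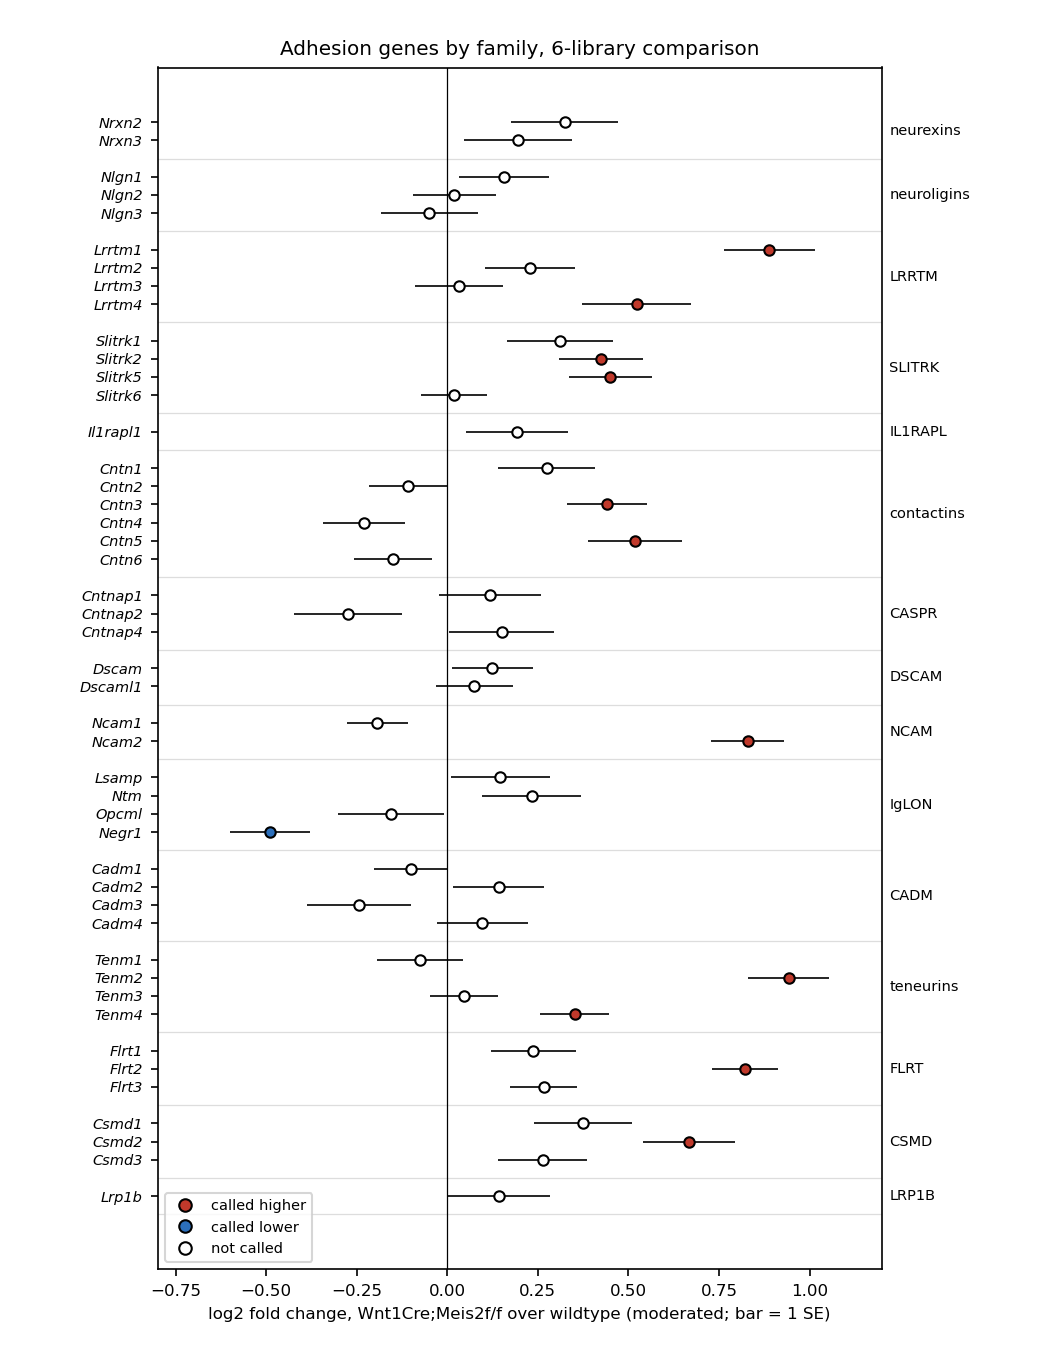
Log2 fold change of each of the 46 genes, mutant over wildtype, ordered by protein family. Points are the deposited estimates from 6 libraries, bars are 1 deposited standard error, and filled points passed an adjusted p of 0.05 (red higher, blue lower). Ncam2 at 0.83 and Ncam1 at -0.19, and Tenm2 at 0.94 and Tenm3 at 0.04, stand apart within their families.

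The FLRT genes encode leucine-rich repeat proteins that serve both as adhesion molecules and, once shed, as guidance cues. Flrt2 (chromosome 12, 95692226 to 95785215, plus strand, GRCm38) had a base mean of 11785, the highest level per kb of exon among the 46 genes. The authors' deposited table gives it a log2 fold change of 0.82 (SE 0.091 and adjusted p 1.98e-16, DESeq2). With 4 libraries the log2 fold change of Flrt2 was 0.83 (SE 0.081), again from the authors' deposited table. Flrt3, with a base mean of 3383, had a log2 fold change of 0.27 (SE 0.093 and adjusted p 0.109, DESeq2) in the deposited table of the authors. Flrt1, with a base mean of 259, had a log2 fold change of 0.24 (SE 0.117 and adjusted p 0.450, DESeq2) in that deposited table by the authors. Flrt1 and Flrt3 each lie inside a macrodomain gene, Macrod1 and Macrod2, on the opposite strand, and share no exon base with it. The authors' deposited table also holds the receptors that FLRT proteins bind. Unc5d, the receptor known as a partner of FLRT2, had a log2 fold change of -1.27 (SE 0.107 and adjusted p 1.62e-28, DESeq2) in the authors' deposited table. Of the other measured receptors, Unc5b was at 0.04 and Unc5c at -0.25 on the log2 scale per the authors' deposited table. The latrophilin genes Adgrl1, Adgrl2 and Adgrl3 were at 0.12, -0.05 and 0.07 on that scale of the authors' deposited table. None of these was called, and Unc5a was under the minimum at a base mean of 4.47.

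Teneurins are very large transmembrane proteins that bind each other and latrophilins across cells. Tenm2 (chromosome 11, 36006656 to 37235964, minus strand) had a base mean of 896 and a log2 fold change of 0.94 (SE 0.111 and adjusted p 1.28e-14, DESeq2) in the authors' deposited table, the highest fold change of the 46 genes. In the authors' deposited table of 4 libraries it was 0.99 (SE 0.103 and adjusted p 1.83e-18, DESeq2). Tenm4 (chromosome 7, 96171246 to 96911093, plus strand) had a base mean of 5658, which is 269 per kb of exon where Tenm2 had 78.0. The log2 fold change of Tenm4 was 0.35 (SE 0.094 and adjusted p 0.00990, DESeq2) in the authors' deposited table, and 0.34 (adjusted p 2.94e-04) with 4 libraries. Tenm3 had a base mean of 12254 and, at 1197 per kb of exon, the highest level of the teneurin genes. Its log2 fold change was 0.04 (SE 0.094 and adjusted p 0.936, DESeq2) in the authors' deposited table, with a 95% interval from -0.14 to 0.23. Tenm1 was at -0.08 (adjusted p 0.919, DESeq2) per the authors' deposited table. The intervals of Tenm2 and Tenm3 do not overlap, although the difference between relatives was not tested for any family, because the tables hold no covariance between genes.

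Among the synaptic organisers of the list, 2 of the 4 LRRTM genes and 2 of the 4 SLITRK genes were called higher. With 4 libraries it was 1 of 4 in each family. Over all tested genes the share called higher was 1.75% with 6 libraries and 1.31% with 4. The neurexin and neuroligin genes of the list did not pass the test. LRRTM proteins are postsynaptic partners of neurexins. Lrrtm1 (chromosome 6, 77242689 to 77257791, plus strand) had a base mean of 294 and a log2 fold change of 0.89 (SE 0.126 and adjusted p 4.79e-10, DESeq2) in the authors' deposited table. With 4 libraries Lrrtm1 was at 0.88 (SE 0.134 and adjusted p 2.24e-08, DESeq2) per the authors' deposited table. Lrrtm1 lies inside Ctnna2, the alpha-catenin gene of neurons, on the opposite strand and with no exon base shared, and Ctnna2 was at -0.21 (adjusted p 0.614, DESeq2) in the authors' deposited table. Lrrtm4 (chromosome 6, 80018877 to 80810143, plus strand) was weakly expressed, at a base mean of 42.7. Its log2 fold change of 0.52 (SE 0.150 and adjusted p 0.0200, DESeq2) in the authors' deposited table was 0.37 (SE 0.130 and adjusted p 0.127) with 4 libraries, where the call was lost. Lrrtm2 was at 0.23 (adjusted p 0.541) and Lrrtm3 at 0.03 (adjusted p 0.966, DESeq2), both log2 fold changes from the authors' deposited table.

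SLITRK proteins bind receptor tyrosine phosphatases and shape neurite growth and synapse formation. Slitrk5 (chromosome 14, 111675097 to 111683141, plus strand) had a base mean of 385 and a log2 fold change of 0.45 (SE 0.115 and adjusted p 0.00520, DESeq2) in the authors' deposited table. With 4 libraries Slitrk5 was at 0.33 (SE 0.125 and adjusted p 0.194, DESeq2) in the authors' deposited table, so that its call was lost. Slitrk2 (X chromosome, 66649318 to 66661393, plus strand) had a base mean of 462 and a log2 fold change of 0.42 (SE 0.116 and adjusted p 0.0125, DESeq2) as deposited by the authors. It was at 0.46 (SE 0.122 and adjusted p 0.0121, DESeq2) in the authors' deposited table of 4 libraries. Slitrk6, with 415 per kb of exon the most abundant SLITRK gene of the list, was at 0.02 (SE 0.091 and adjusted p 0.974, DESeq2) in the authors' deposited table, with a 95% interval from -0.16 to 0.20. Slitrk1, at a base mean of 32.8, had a log2 fold change of 0.31 (SE 0.146 and adjusted p 0.397, DESeq2) in the authors' deposited table.

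Neurexins are presynaptic receptors, and neuroligins are their best known postsynaptic partners. Nrxn2, at a base mean of 34.5, had a log2 fold change of 0.32 (adjusted p 0.376) and Nrxn3, at 55.3, one of 0.20 (adjusted p 0.750, DESeq2) in the authors' deposited table. Nlgn1 was at 0.16 (adjusted p 0.766), Nlgn2 at 0.02 (adjusted p 0.977) and Nlgn3 at -0.05 (adjusted p 0.952, DESeq2) on the same scale of the authors' deposited table. Nlgn2 had the highest level per kb of exon of these 5 genes, 152, and its 95% interval ran from -0.20 to 0.24. Il1rapl1, whose protein binds a receptor tyrosine phosphatase at excitatory synapses, was at 0.19 (adjusted p 0.734, DESeq2) in the authors' deposited table.

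Contactins carry immunoglobulin and fibronectin repeats and guide axons or hold the junctions of myelinated fibres. Cntn5 (chromosome 9, 9660891 to 10904775, minus strand) had a base mean of 227 and a log2 fold change of 0.52 (SE 0.130 and adjusted p 0.00383, DESeq2) in the authors' deposited table. Cntn3 (chromosome 6, 102162655 to 102573101, minus strand) had a base mean of 686 and a log2 fold change of 0.44 (SE 0.111 and adjusted p 0.00423, DESeq2) in the authors' deposited table. In 4 libraries Cntn5 and Cntn3 kept their calls, with log2 fold changes of 0.47 (SE 0.137 and adjusted p 0.0270) for Cntn5 and 0.40 (SE 0.119 and adjusted p 0.0330, DESeq2) for Cntn3 in the authors' deposited table. The other contactins did not share a direction and were not called: Cntn1 was at 0.27 (adjusted p 0.428), Cntn2 at -0.11 (adjusted p 0.838), Cntn4 at -0.23 (adjusted p 0.432) and Cntn6 at -0.15 (adjusted p 0.719, DESeq2) in the authors' deposited table. Cntn4 and Cntn6 were not rare, with base means of 797 and 893, or 93.9 and 137 per kb of exon, beside 102 per kb for Cntn3 and 50.2 per kb for Cntn5. Cntn2 was at 0.13 with 4 libraries, the opposite sign, per the authors' deposited table. The Caspr genes were weakly expressed, with base means of 24.9 to 41.7. Cntnap1 was at 0.12 (adjusted p 0.877), Cntnap2 at -0.27 (adjusted p 0.541) and Cntnap4 at 0.15 (adjusted p 0.826, DESeq2) in the authors' deposited table.

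NCAM proteins are immunoglobulin adhesion molecules that bind their own kind. Ncam2 (chromosome 16, 81200697 to 81626828, plus strand) had a base mean of 1322 and a log2 fold change of 0.83 (SE 0.101 and adjusted p 1.01e-13, DESeq2) in the authors' deposited table. With 4 libraries Ncam2 was at 0.79 (SE 0.096 and adjusted p 9.23e-14, DESeq2) in the authors' deposited table. Its relative Ncam1, with 273 per kb of exon where Ncam2 had 117, had a log2 fold change of -0.19 (SE 0.085 and adjusted p 0.330, DESeq2) in the authors' deposited table. The 95% intervals of the pair, 0.63 to 1.03 for Ncam2 and -0.36 to -0.03 for Ncam1, do not overlap. Ncam1 shares 417 exon bases with an antisense gene of low base mean, 25.9, and reads over those bases cannot be assigned to a strand here.

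IgLON proteins are small lipid-anchored adhesion molecules of neurons. Negr1 (chromosome 3, 156561794 to 157316445, plus strand), with a base mean of 452, had a log2 fold change of -0.49 (SE 0.109 and adjusted p 6.44e-04, DESeq2) in the authors' deposited table. With 4 libraries Negr1 was at -0.36 (SE 0.119 and adjusted p 0.0780, DESeq2) in the authors' deposited table, so that the only call of a lower member was lost. The remaining IgLON genes were Lsamp at 0.15 (adjusted p 0.819), Ntm at 0.23 (adjusted p 0.595) and Opcml at -0.16 (adjusted p 0.821, DESeq2) in the authors' deposited table. CADM genes encode synaptic and epithelial adhesion molecules, and 0 of the 4 was called, beside 1.75% higher and 1.16% lower over all tested genes. Cadm1 was at -0.10 (adjusted p 0.832), Cadm2 at 0.14 (adjusted p 0.801), Cadm3 at -0.24 (adjusted p 0.598) and Cadm4 at 0.10 (adjusted p 0.898, DESeq2) in the authors' deposited table. The DSCAM genes, known for self-avoidance of neurites, were near the limit of measurement. Dscam had a base mean of 10.5 and a log2 fold change of 0.12 (adjusted p 0.800, DESeq2), and Dscaml1, at a base mean of 8.84 the member under the minimum, one of 0.07 (adjusted p 0.910) in the authors' deposited table. Neither has an adjusted p with 4 libraries.

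CSMD proteins are large transmembrane proteins built of CUB and sushi domains, which are shared with regulators of complement. Csmd2 (chromosome 4, 127987857 to 128567656, plus strand) had a base mean of 195 and a log2 fold change of 0.67 (SE 0.126 and adjusted p 1.43e-05, DESeq2) in the authors' deposited table. With 4 libraries Csmd2 was at 0.55 (SE 0.139 and adjusted p 0.00563, DESeq2) per the authors' deposited table. Csmd1 had a base mean of 18.9 and a log2 fold change of 0.37 (SE 0.135 and adjusted p 0.136, DESeq2) in the authors' deposited table. Csmd3, at a base mean of 495, was at 0.26 (SE 0.122 and adjusted p 0.386) with 6 libraries and 0.37 (adjusted p 0.0879, DESeq2) with 4, in the authors' deposited tables. Lrp1b, a giant relative of the LDL receptor, was at 0.14 (adjusted p 0.832, DESeq2) in the authors' deposited table.

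Promoter sequences were read for the called genes because Meis2 is a DNA-binding factor. RefSeq (GRCm38.p6) gave 46 windows of 250 bases before a transcript start for 33 of the 46 genes, and 15 of these windows belong to 11 of the 12 called genes. The hexamer TGACAG, a core that MEIS proteins are known to bind, was searched on both strands. It was present in 4 of the 15 windows of called genes (26.7%), which belong to Cntn5 (a pair of overlapping windows that hold the same copy), Lrrtm4 and Slitrk2. It was present in 5 of the 31 windows of members that were not called (16.1%), in 14.0% of the 14059 windows of tested genes and in 15.9% of all 32851 windows. A match is a description of these letters and not a site of binding. The 5 windows below belong to Flrt2, Ncam2 and Lrrtm1, which rose most among genes with a window near the annotated start, to Cntn5, whose window holds the motif, and to Negr1, the gene that fell. Each is written on the strand of its gene, and capitals mark TGACAG or its reverse complement.
Flrt2 (chr12:95691976-95692225, plus strand): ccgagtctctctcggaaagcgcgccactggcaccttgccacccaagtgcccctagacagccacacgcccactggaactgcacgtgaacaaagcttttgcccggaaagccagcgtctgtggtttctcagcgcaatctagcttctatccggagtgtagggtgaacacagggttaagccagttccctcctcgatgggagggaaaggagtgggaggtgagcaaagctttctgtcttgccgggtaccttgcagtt
Ncam2 (chr16:81200447-81200696, plus strand): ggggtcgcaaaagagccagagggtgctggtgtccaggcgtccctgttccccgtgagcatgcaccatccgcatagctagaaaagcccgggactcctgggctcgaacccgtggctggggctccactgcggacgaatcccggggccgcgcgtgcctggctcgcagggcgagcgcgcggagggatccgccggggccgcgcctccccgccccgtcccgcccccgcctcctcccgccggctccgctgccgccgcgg
Lrrtm1 (chr6:77242227-77242476, plus strand): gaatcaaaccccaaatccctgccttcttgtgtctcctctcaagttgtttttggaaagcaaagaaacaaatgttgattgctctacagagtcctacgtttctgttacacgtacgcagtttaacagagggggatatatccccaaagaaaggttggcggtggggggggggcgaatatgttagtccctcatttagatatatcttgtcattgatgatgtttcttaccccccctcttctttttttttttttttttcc
Cntn5 (chr9:10904776-10905025, minus strand): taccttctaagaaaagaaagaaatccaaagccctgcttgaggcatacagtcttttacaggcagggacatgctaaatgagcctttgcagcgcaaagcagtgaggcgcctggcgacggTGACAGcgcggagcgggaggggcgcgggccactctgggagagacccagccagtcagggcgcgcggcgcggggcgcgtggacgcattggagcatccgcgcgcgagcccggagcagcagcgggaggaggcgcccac
Negr1 (chr3:156561544-156561793, plus strand): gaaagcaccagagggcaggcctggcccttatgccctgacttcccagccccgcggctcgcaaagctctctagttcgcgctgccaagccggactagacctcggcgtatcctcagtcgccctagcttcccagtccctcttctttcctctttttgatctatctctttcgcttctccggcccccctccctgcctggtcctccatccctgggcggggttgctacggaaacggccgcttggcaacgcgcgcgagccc
The windows differ in composition. The Ncam2 window has 32 CpG dinucleotides and the Cntn5 window 24, where the median of all windows of tested genes is 15. The Negr1 window has 19, the Flrt2 window 12 and the Lrrtm1 window 5, so the genes that rose most have windows on both sides of that median. The RefSeq windows of Tenm2, Cntn3 and Slitrk5 lie inside the gene as GENCODE M21 draws it and are not shown. The downstream windows of Slitrk2, Tenm4 and Lrrtm4 also lie inside the gene, and that of Lrrtm4 is its window with TGACAG.

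Levels were compared between genes as base mean per kb of merged exon. The median over measured members was 32.9 and that over 13163 measured protein-coding genes 82.6, and 15 of the 45 measured members were above the latter. Flrt2 led with 1526, followed by Tenm3 with 1197, Flrt3 with 695 and Slitrk6 with 415, and these 4 were above the 90th percentile of all, 387. Of the 12 called genes, 5 were above the median of all measured genes: Flrt2, Tenm4 (269), Ncam2 (117), Cntn3 (102) and Lrrtm1 (97.0). Tenm2 was close to it at 78.0 per kb, and Lrrtm4 had the lowest level of a called gene, 6.95 per kb. Thus 3 of the 4 most abundant members, Tenm3, Flrt3 and Slitrk6, were not called, and their log2 fold changes were 0.04, 0.27 and 0.02 in the authors' deposited table.

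**Figure D2:**
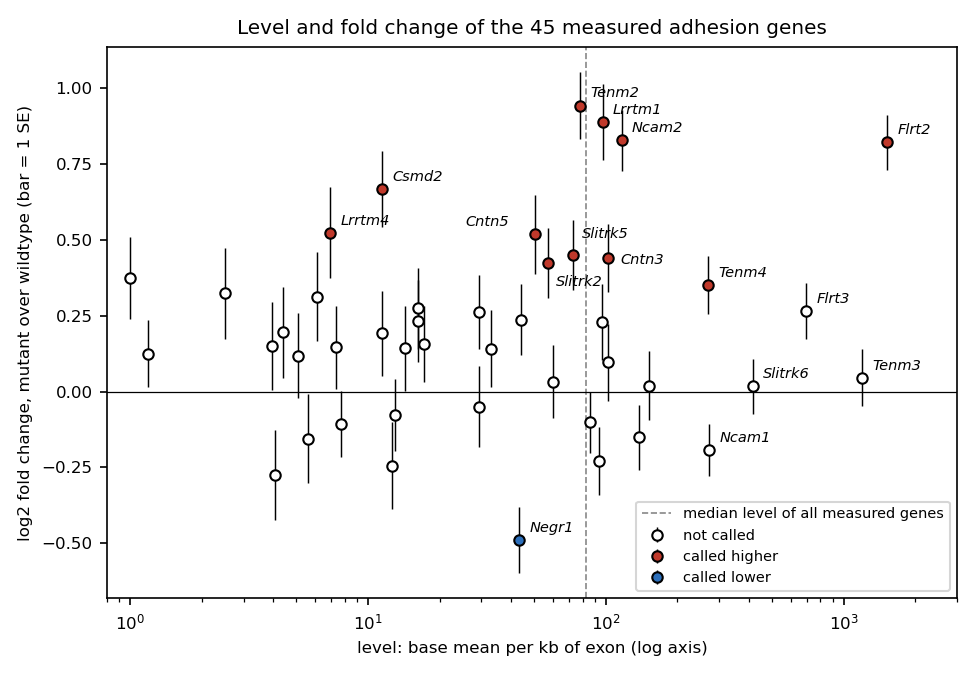
Log2 fold change (mutant over wildtype, bars 1 SE) against base mean per kb of exon (log axis) for the 45 measured genes. The dashed line is the median level of all measured protein-coding genes, 82.6 per kb. Called genes spread over levels from 6.95 (Lrrtm4) to 1526 (Flrt2).

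With 4 of the 6 libraries, 9 members were called higher and 0 lower (DESeq2). The background in that table was 1.31% of 14548 genes higher and 0.99% lower. All 9 were among the 11 called with 6 libraries, and the calls that were lost are those of Lrrtm4, Slitrk5 and Negr1. At an unadjusted p under 0.05, 13 members were higher and 2 lower with 4 libraries. Among all 24421 genes, which include 3994 with a base mean of 0 in these 4 libraries, 682 were higher and 690 lower. The median log2 fold change of 44 measured members was 0.13. These libraries are part of the same 6, so the agreement of the tables is not a second experiment, and which replicate of each genotype was left out is not known.

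**Figure D3:**
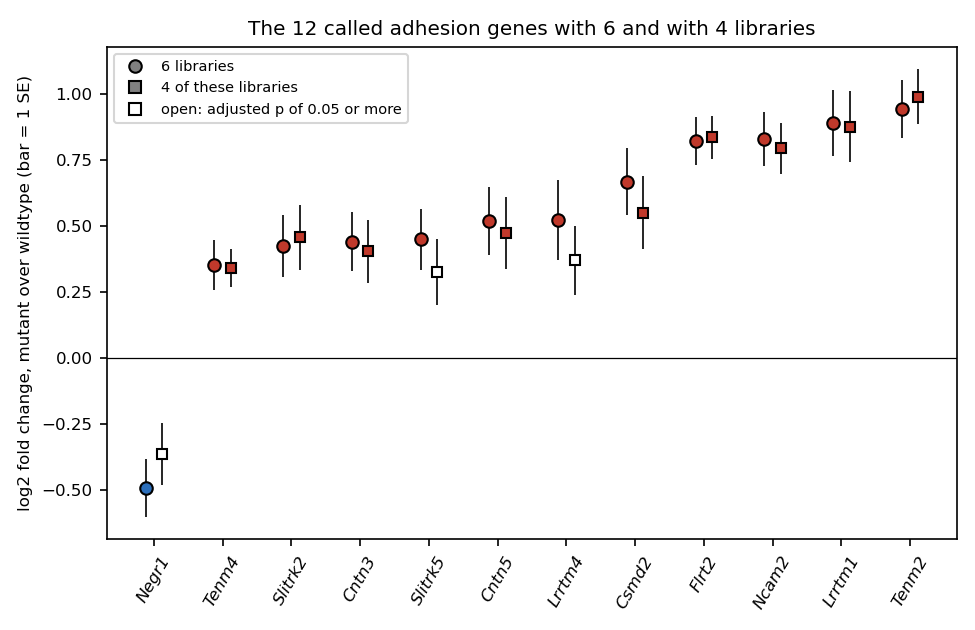
Log2 fold change (mutant over wildtype, bars 1 SE) of the 12 called genes with 6 libraries (circles) and with 4 of the same libraries (squares). Open squares mark an adjusted p of 0.05 or more, as for Negr1, Slitrk5 and Lrrtm4, and each pair lies on the same side of 0.

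The members are long genes. Their median span was 391 kb, against 25.5 kb over tested protein-coding genes, and 27 of the 46 span at least 300 kb. Long genes as a class were called more often in these tables: 14.3% of the 490 tested genes of at least 300 kb were called higher and 4.90% lower, and 1.38% and 1.10% of the 12933 shorter genes. Among the 27 long members, 7 were called higher (25.9%) and 1 lower, where 63 of 463 other genes of that length (13.6%) were called higher. The shorter members were called as well. Of 19 members under 300 kb, 4 were called higher (21.1%) and 0 lower, namely Lrrtm1, Slitrk2, Slitrk5 and Flrt2, where 175 of 12914 other genes of that length (1.36%) were called higher. With 4 libraries 3 of 19 members under 300 kb (15.8%) and 6 of 25 long members (24.0%) were called higher. Among genes that are not members the shares were 1.00% of 12665 shorter and 10.3% of 455 long genes. Of all 480 tested long genes, 11.0% were then called higher and 2.08% lower. No test of these differences in share was made, because the members were chosen with earlier results of these data known. The median fold change of each of 20 bins of span was then subtracted, with medians from -0.08 to 0.08 on the log2 scale, and 10 members were called higher. Members from 291 kb (Cntn1) to 2245 kb (Cntnap2) fell in the same bin and had the same 0.08 subtracted, so length was not matched among them. Lrrtm4 (adjusted p 0.0943) and Tenm4 (adjusted p 0.120) lost their calls, and Flrt3 gained one at a log2 fold change of 0.30 (adjusted p 0.0423, Wald test on the deposited standard error). Ncam1 was then called lower beside Negr1, at -0.28 (adjusted p 0.0396, same test).

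**Figure D4:**
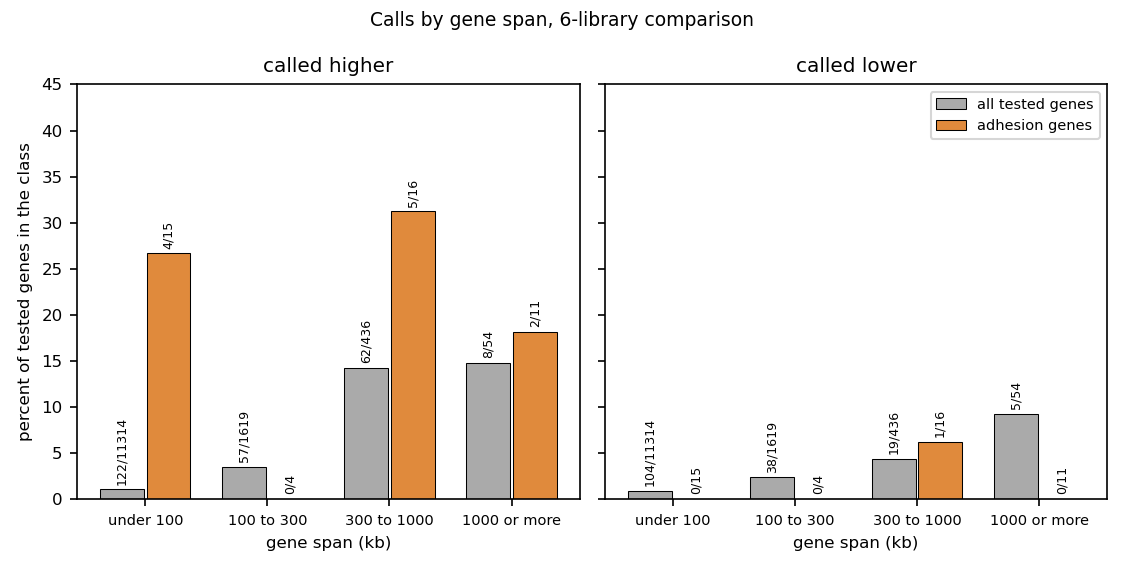
Share of tested genes called higher (left) and lower (right) in percent, by gene span in kb, for all tested genes (grey) and for the members (orange), with counts above the bars. Below 100 kb, 4 of 15 members and 122 of 11314 tested genes were called higher.

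Scaffold proteins anchor these receptors inside the cell. Of 29 genes for them, 26 were measured, 0 were called higher and 2 lower (7.69%), beside 1.75% higher and 1.16% lower over all tested genes, and a count of 0 among 26 is near that background. Their median log2 fold change was 0.01. At an unadjusted p under 0.05, 2 were higher and 4 lower, beside 831 and 782 of all 24421 genes, which include the 3424 with a base mean of 0. With 4 libraries 0 were called higher and 1 lower (DESeq2). The scaffolds that fell were Dlg2, which encodes PSD-93, with a log2 fold change of -0.71 (adjusted p 3.89e-09), and Shank1 at -0.46 (adjusted p 0.00436, DESeq2) in the authors' deposited table. With 4 libraries Dlg2 kept its call at -0.56 (adjusted p 4.45e-05, DESeq2) in the authors' deposited table. Shank1 was then at -0.41 (adjusted p 0.0742, DESeq2) in the authors' deposited table and was not called. A list of 35 genes held extracellular and membrane partners of the members, with relatives of the members such as Slitrk4 and Il1rapl2 among them. Of these 35 genes, 31 were measured, 1 was called higher and 2 lower, and the median of 0.04 is not one of partners alone. Il1rapl2, a relative of Il1rapl1, was at 0.70 (adjusted p 2.38e-04), and Mdga2, whose protein blocks neuroligins, at -0.46 (adjusted p 0.00174, DESeq2) in the authors' deposited table, beside the fall of Unc5d given above. With 4 libraries Il1rapl2 was at 0.39 (adjusted p 0.138) and Mdga2 at -0.39 (adjusted p 0.0636, DESeq2), and only the call of Unc5d stood in the authors' deposited table.

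Among cell type markers, calls were toward lower values for neurons and toward higher values for muscle. Of all tested genes, 1.75% were called higher and 1.16% lower with 6 libraries, and 1.31% and 0.99% with 4. Levels in each genotype cannot be given, so summed base means over all 6 libraries are. Of 19 neuron markers 13 were measured, with a summed base mean of 1219, and 0 were called higher and 5 lower, namely Tubb3, Dcx, Elavl4, Nefm and Gap43. The log2 fold changes of these 5 ran from -0.68 (Tubb3) to -0.49 (Elavl4) in the authors' deposited table, and with 4 libraries 1 of 11 measured markers was called lower. Of 11 markers of Schwann cells and glia 9 were measured, and Ngfr was called lower at -0.38 in the authors' deposited table, with a list median of -0.22 and 0 calls with 4 libraries. Of 16 muscle markers 15 were measured, with a summed base mean of 11895, most of it from Ttn (9640), and 8 were called higher with a list median of 0.47 (4 called with 4 libraries, median 0.32). These 8 were Myod1, Myog, Tnnt1, Tnnt2, Tnni1, Actc1, Ttn and Des, with log2 fold changes from 0.47 (Des) to 0.83 (Tnnt1) in the authors' deposited table. Of 10 macrophage markers 3 were called higher (Csf1r, Adgre1 and Mrc1), with a median of 0.24. With 4 libraries Adgre1 was at 0.29 (adjusted p 0.451, DESeq2) in the authors' deposited table, which left 2 called and a median of 0.16. The 10 endothelial and 10 epithelial markers had medians of 0.03 each and 0 calls at either number of libraries, although epithelial markers were present at a summed base mean of 1332. The 12 markers of palatal mesenchyme, the labelled tissue, summed to a base mean of 91039. Pax9 and Alx1 were called higher and Prrx1, Twist1 and Shox2 lower, with a median of -0.12. With 4 libraries 3 of these markers were called higher and 3 lower, with a median of -0.08. Pdgfra gained its call there, at 0.23 (adjusted p 0.0473, DESeq2) in the authors' deposited table. No marker of any list was at a base mean of 0. Neurons, muscle and mesenchyme can each express members of these adhesion families, and the part of these markers' changes in the rises of Tenm2, Flrt2, Ncam2 and the others was not tested.

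**Figure D5:**
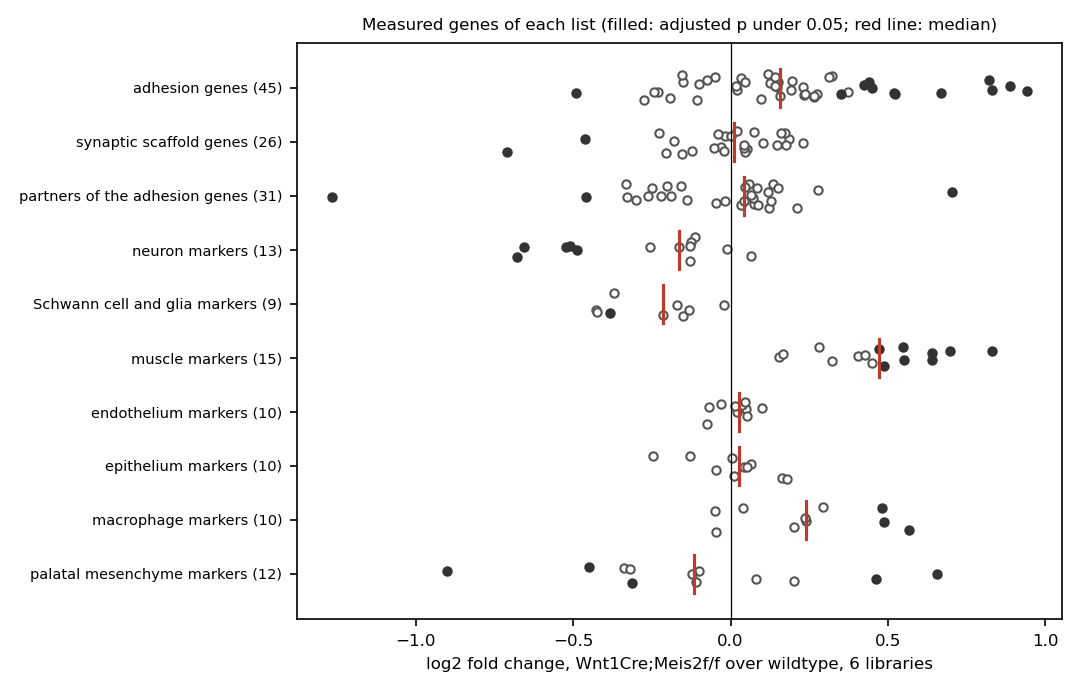
Log2 fold change (mutant over wildtype, 6 libraries) of each measured gene of the adhesion list and of the lists of scaffolds, partners and cell type markers. The partner list also holds relatives of the members. Filled points are called genes, and a red line marks each median. The medians are 0.16 for the members, 0.01 for scaffolds, -0.16 for neuron markers and 0.47 for muscle markers.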

How the data were processed

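Bulk RNA-seq of 3 wildtype and 3 Wnt1Cre;Meis2f/f samples was deposited as 3 tables of the authors' own comparison. RNA was reverse transcribed and amplified before TruSeq v2 library preparation, per the labels' protocols. The submitters' processing notes name HISAT2, featureCounts, DESeq2, GRCm38 and mm10. Versions, annotation and strand setting: not given in the sources used here. The base mean, a signal deposited by the authors, is a mean of counts over size factors. Fold changes with standard errors are log2 values deposited by the authors, and the Wald statistic is a deposited score. Deposited p-values and adjusted p-values come from the Wald test of DESeq2 run by the authors.

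One table rests on 6 libraries and another on 4 of them, as the base means of single-read genes take 6 and 4 levels. All 1613 rows of the third equal rows of the first, and it was not used further. The design text describes each table as 1 pair of libraries, which these levels go against. Members and gene lists were chosen with earlier results of these data known. All 46 members are named, in full if called, and list genes are named if called. The UNC5 and latrophilin genes that were not called, Slitrk4 and Ctnna2 were chosen after their values were seen.

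Genes were called at an adjusted p under 0.05 and counted as measured at a base mean of at least 10. Intervals are 95% normal intervals from the deposited standard error, centred on the moderated fold change. They can lie nearer to no change than intervals of an unmoderated estimate would. Spans and exon lengths are from GENCODE M21 (GRCm38), and 90.3% of measured genes matched a protein-coding gene. Alternatives were the 4-library table, an adjusted p under 0.01, adjustment over all genes with a p, centring on the median and subtraction of the median in 20 bins of span. They were run in Python 3.11.15 with pandas 2.3.3, numpy 2.4.6 and scipy 1.17.1. Only the centring and the span subtraction were tested on simulated data.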

Additional observations from a re-analysis of the deposited data

How the results depend on the processing

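The 11 members called higher became 9 with 4 libraries, 9 at an adjusted p under 0.01, 11 with adjustment over all genes with a p or with centring on the median of measured genes, and 10 with the span trend subtracted. The 1 member called lower became 0 with 4 libraries, where Negr1 lost its call, and 2 with the span trend subtracted, where Ncam1 gained one. No called member changed direction under these alternatives. The median log2 fold change of measured members ran from 0.11 (span trend subtracted) to 0.19 (base mean of at least 100, 33 genes). No paired analysis was possible because the tables hold no values per library, and leaving out each library in turn could not be run for the same reason. The median standard error of measured members was 0.12 on the log2 scale in the deposited table, which limits what smaller differences can show.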
